A study of Saccharomyces cerevisiae with 11 samples.

Results

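The Rim15 branch of yeast nutrient signalling is described here through 10 genes: RIM15 itself, IGO1, IGO2, CDC55, MSN2, MSN4, GIS1, SCH9, PHO80 and PHO85. They are the kinase gene deleted in this strain, its substrates, the phosphatase subunit those substrates act on, the transcription factors below and the kinases above. Each was taken from the probe set annotated to that symbol alone, and each had 1 such probe set, among 5656 genes measured this way. All 11 arrays come from Saccharomyces cerevisiae lacking RIM15, strain IMK313, derived from the prototrophic laboratory strain CEN.PK113-7D. Cells grew without oxygen at 30 °C and pH 5.0, limited by glucose, on medium with 50 g of glucose per litre fed at a dilution rate of 0.025 per h. The groups were the chemostat, with 3 cultures, and the retentostat on days 2, 9, 16 and 20. The retentostat keeps its cells behind a filter while medium flows through, so each cell has ever less glucose and division slows. There were 2 retentostat cultures, numbered 1 and 2, and samples of both exist for all 4 days. Every group carries the deletion and wild-type cells were not analysed here, so the comparisons show the mutant over time and not the effect of losing Rim15.

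Rim15 is a protein kinase that promotes entry into the resting state when nutrients run short. Protein kinase A, the kinase Sch9 (which is driven by the growth regulator TORC1) and the cyclin-dependent kinase pair Pho80-Pho85 each restrain it. Once released, Rim15 phosphorylates the small paralogous proteins Igo1 and Igo2, which then inhibit the phosphatase PP2A bound to its regulatory subunit Cdc55. The transcription factors Msn2, Msn4 and Gis1 turn on stress and stationary-phase genes downstream. Much of this control acts on phosphorylation and location of the proteins, which arrays do not measure, so only the transcript levels of the components are given.

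RIM15 (YFL033C) gave signals of 10.7, 3.8 and 3.0 in the chemostat, 5.4 and 1.6 on day 2, 13.9 and 0.4 on day 9, 5.3 and 6.6 on day 16 and 2.7 and 1.1 on day 20. Signals are linear fluorescence units as deposited, and values at or under 12 were treated as a floor without order. RIM15 therefore exceeded the floor on 1 of 11 arrays, the day 9 array of culture 1, and it entered the tests through that array alone. Where its probes lie along the gene is unknown here, so the low signal checks the deletion only if the probes lie in the removed part. The other 9 genes lay above the floor on all 11 arrays.

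The deposited values had been scaled to a common trimmed mean, which differed between arrays by 0.0311%, while the median signal ran from 85.3 to 122. On the culture 2 arrays of days 9, 16 and 20, the control probe sets for actin (ACT1) had a 3'/5' signal ratio of 27.0, 217 and 31.8, against 0.966 to 2.03 on the other 8 arrays. A high ratio is commonly read as a sign of degraded RNA or incomplete labelling. Each of these days thus has 1 array of high ratio and 1 without, and the tests were repeated without the 3 arrays. That repeat changed calls of SCH9 and GIS1, given below, and of no other gene among the 10. Precision is limited by how few arrays there are. The retentostat arrays of a culture number are 1 culture sampled repeatedly, so p-values measure the spread between these arrays. In such bulk RNA, fewer cells expressing a gene and less RNA per cell cannot be told apart.

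Among the 10 genes, SCH9 and GIS1 were higher past the threshold on day 9 of the retentostat than in the chemostat, and no other gene of the branch passed in any comparison with the chemostat. The test was limma over 5577 genes with Benjamini-Hochberg adjustment and a threshold of 0.05. On day 9, 2 of 10 genes passed as higher, beside 11.4% of all genes tested as higher and 15.1% in either direction. On days 2, 16 and 20, 0 of 10 passed (limma), beside 0.0179%, 20.9% and 13.5% of all genes. At an unadjusted p under 0.05 the counts were 0, 3, 3 and 3 of 10 on days 2, 9, 16 and 20, beside 8.57%, 30.8%, 37.4% and 31.6% of all genes. The moderated F test over the 5 sampling points passed 0 of 10 genes, with a smallest adjusted p of 0.0859 for SCH9, beside 11.4% of all genes. A count of 2 in 10 beside 15.1% of all genes is not a result about the branch as a group. The arrays did not overlap between retentostat day and chemostat for 3, 3, 4 and 5 of 10 genes on days 2, 9, 16 and 20, beside 34.4%, 46.9%, 53.0% and 64.3% of all genes. The median log2 difference of the 10 genes from the chemostat was 0.16, 0.20, 0.25 and 0.19 on days 2, 9, 16 and 20, and that of all genes was 0.11, 0.25, 0.35 and 0.36. Because the median of all genes moved under the deposited scaling, differences are best read against those values.

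**Figure D1:**
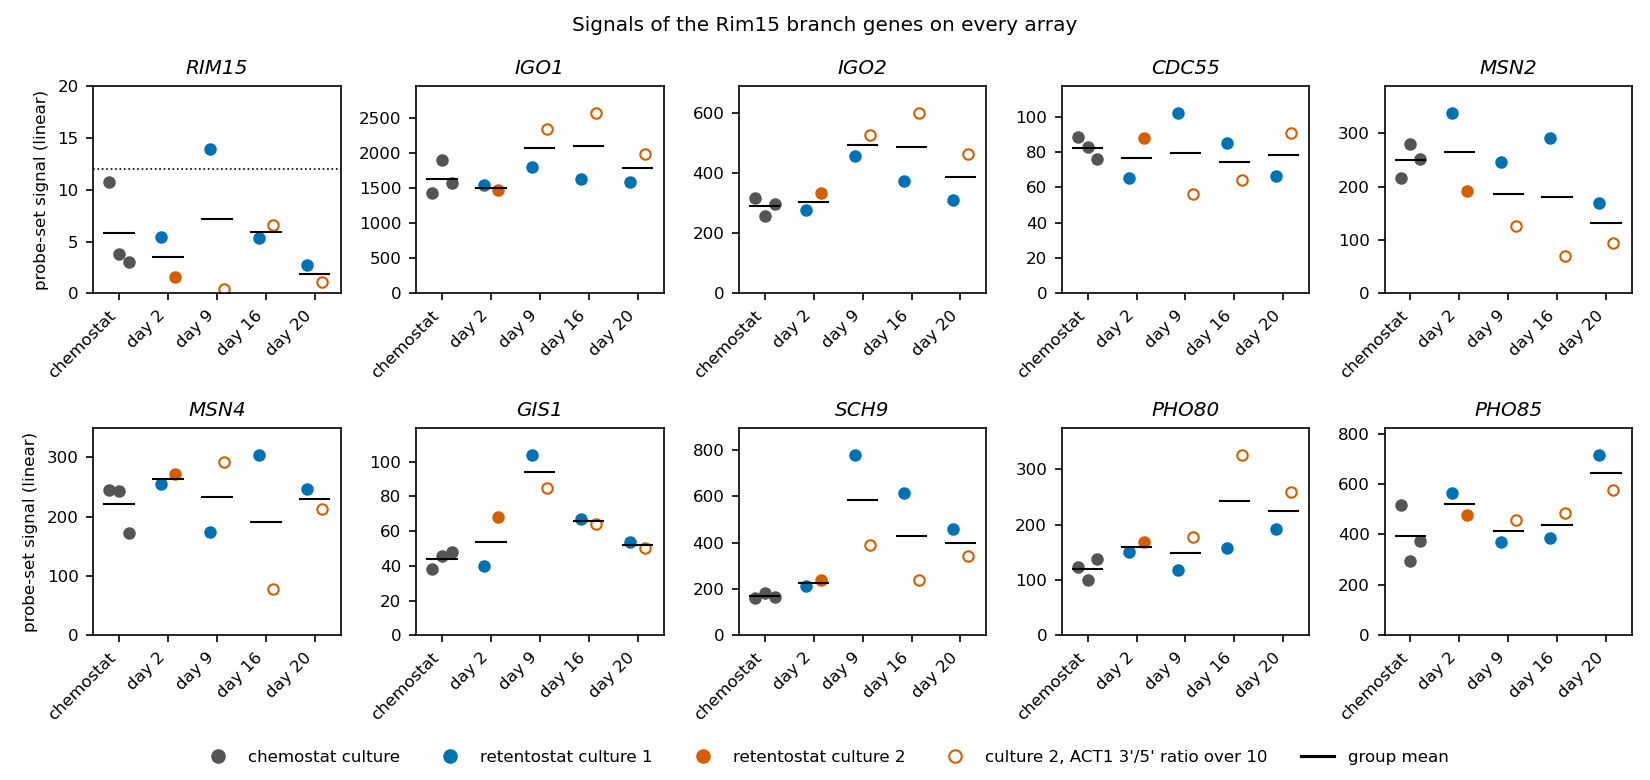
Probe-set signal (linear units) of the 10 genes on each array, by sampling point, with chemostat arrays in grey, culture 1 in blue and culture 2 in orange; open circles mark arrays with an ACT1 3'/5' ratio over 10, bars are group means and the dotted line in the RIM15 panel is the floor of 12. All 8 retentostat arrays lie above the chemostat arrays for SCH9, and the culture 2 arrays lie low for MSN2.

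Among the kinases that restrain Rim15, SCH9 (YHR205W) encodes a relative of mammalian S6 kinase that promotes ribosome production and growth. Its signals were 161, 184 and 167 in the chemostat and 211 and 239.5 on day 2 (culture 1 first, here and below). They were 778 and 389.5 on day 9, 616 and 241 on day 16, and 457 and 343 on day 20. All 8 retentostat arrays lay above all 3 chemostat arrays, as they did for 12.7% of all genes, and from day 9 onward culture 1 was the higher culture. On day 9 SCH9 averaged 584 ± 274 (SD, n = 2) against 171 ± 11.6 in the chemostat (SD, n = 3). The difference of the mean log2 signals was 1.69 ± 0.41, or 3.23-fold (SE; limma, adjusted p = 0.0248). On days 16 and 20 the log2 differences were 1.18 and 1.22 ± 0.41 (adjusted p = 0.0707 and 0.0784). Their 95% confidence intervals reached from 0.25 to 2.10 and from 0.29 to 2.14.

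The SCH9 result depended on which arrays entered. Without the 3 arrays of high ACT1 ratio, SCH9 passed on all 3 late days, with log2 differences of 2.19, 1.85 and 1.42 (limma adjusted p = 0.0186, 0.0177 and 0.0288). Each late day then has 1 array, taken to have the same spread as the groups with several arrays. Under median scaling of those 8 arrays, an alternative added after the data were seen, the differences were 2.01, 1.54 and 1.01 (adjusted p = 0.00616, 0.00978 and 0.0468). With all 11 arrays the day 9 call ended under quantile scaling (1.37, adjusted p = 0.0826) and median scaling (1.40, adjusted p = 0.0778). It also ended without chemostat array 1, 2 or 3 (adjusted p = 0.0752, 0.0618 and 0.0781) and when culture 1 was left out of day 9 (1.19, adjusted p = 0.118). The sign was positive under all these settings. Leaving out either day 9 array brought the day 16 difference past the threshold, and leaving out either day 16 array did so for day 20. The differences themselves stayed at 1.18 and 1.22. Only the spread shared over the groups and the adjustment over all genes changed. Both fits of such a pair are the same for the other days, since an array left alone adds no spread. Without the culture 2 array of day 16, the day 16 difference was 1.85 (adjusted p = 0.0282), and without the culture 1 array it was 0.50 (adjusted p = 0.326).

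PHO80 (YOL001W) encodes the cyclin that directs Pho85 in the phosphate response. Its signals were 124, 100.4 and 137 in the chemostat, 151 and 168 on day 2, 119 and 178 on day 9, 158.5 and 326 on day 16, and 192 and 259 on day 20. Of 8 retentostat arrays, 7 lay above the chemostat range, and the exception was the culture 1 array of day 9. Culture 2 was the higher culture on all 4 days. On day 20 PHO80 averaged 226 ± 47.1 (SD, n = 2) against 121 ± 18.7 in the chemostat (SD, n = 3), higher by 0.90 ± 0.34 on the log2 scale (limma adjusted p = 0.106). On day 16 the difference was 0.93 ± 0.34 (adjusted p = 0.0798). Neither passed, although the 95% intervals, 0.14 to 1.66 on day 20 and 0.16 to 1.69 on day 16, lay above 0. Without either day 16 array, the day 20 difference stayed at 0.90 and passed. Only the shared spread and the adjustment over all genes changed, and both fits are the same for day 20. The day 16 difference was 1.45 and passed without the culture 1 array of that day (adjusted p = 0.0167), where it rests on the array with an ACT1 ratio of 217. With only the day 20 and chemostat arrays in the fit, PHO80 and SCH9 both passed on day 20 (adjusted p = 0.0303 and 0.0107).

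PHO85 (YPL031C) encodes the kinase itself, which also pairs with other cyclins. Its signals were 516, 295 and 373 in the chemostat, 566 and 475 on day 2, 368 and 456 on day 9, 386 and 486 on day 16, and 715 and 576 on day 20. The day 20 arrays lay above all other arrays, and those of days 9 and 16 lay within the chemostat range. The day 20 difference was 0.74 ± 0.28 on the log2 scale (95% interval 0.11 to 1.37, limma adjusted p = 0.109) and did not pass.

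IGO1 (YNL157W) and IGO2 (YHR132W-A) encode the endosulfine-family substrates of Rim15. IGO1 gave 1433, 1895 and 1575 in the chemostat, 1549 and 1466 on day 2, 1806 and 2340.3 on day 9, 1635 and 2568 on day 16, and 1580.3 and 1983 on day 20. All of its retentostat arrays of culture 1 lay within the chemostat range, and the 3 arrays above that range were the culture 2 arrays of high ACT1 ratio. The log2 difference from the chemostat was between -0.11 and 0.34 on the 4 days, with a highest 95% interval bound of 0.94 (adjusted p from 0.390 to 0.972). Transcripts of this substrate gene thus showed no difference that this design could detect, and intervals this wide still include moderate changes.

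IGO2 gave 318.5, 258 and 296 in the chemostat, 277 and 333 on day 2, 458 and 527 on day 9, 373 and 600.4 on day 16, and 311 and 464 on day 20. Both cultures lay above the chemostat range on days 9 and 16, and culture 1 was back within it on day 20. The mean was 492.5 ± 48.9 on day 9 (SD, n = 2) against 291 ± 30.6 in the chemostat (SD, n = 3). The log2 difference was 0.76 ± 0.28 (95% interval 0.13 to 1.39, limma adjusted p = 0.0986) on day 9 and 0.71 ± 0.28 (adjusted p = 0.0999) on day 16, and neither passed. Without the culture 1 array of day 16 the difference on that day was 1.05 and passed (adjusted p = 0.0314), resting on the array with the highest ACT1 ratio. The log2 signals of IGO1 and IGO2 correlated across arrays with r = 0.78 over 11 arrays and 0.11 over the 8 arrays of low ratio. These points share cultures and day effects, and the values are a description only.

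CDC55 (YGL190C), the regulatory subunit of PP2A that phosphorylated Igo1 and Igo2 bind, was the gene with the smallest differences apart from RIM15. It gave 88.4, 82.9 and 76.1 in the chemostat, 65.0 and 87.7 on day 2, 102 and 56.3 on day 9, 84.8 and 64.3 on day 16, and 66.2 and 90.8 on day 20. The cultures straddled the chemostat range on days 9 and 20, with culture 1 the higher on day 9 and the lower on day 20. The log2 difference lay between -0.16 and -0.09 on the 4 days, and the 95% intervals extended from -0.84 to 0.60 (limma adjusted p from 0.739 to 0.972).

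**Figure D2:**
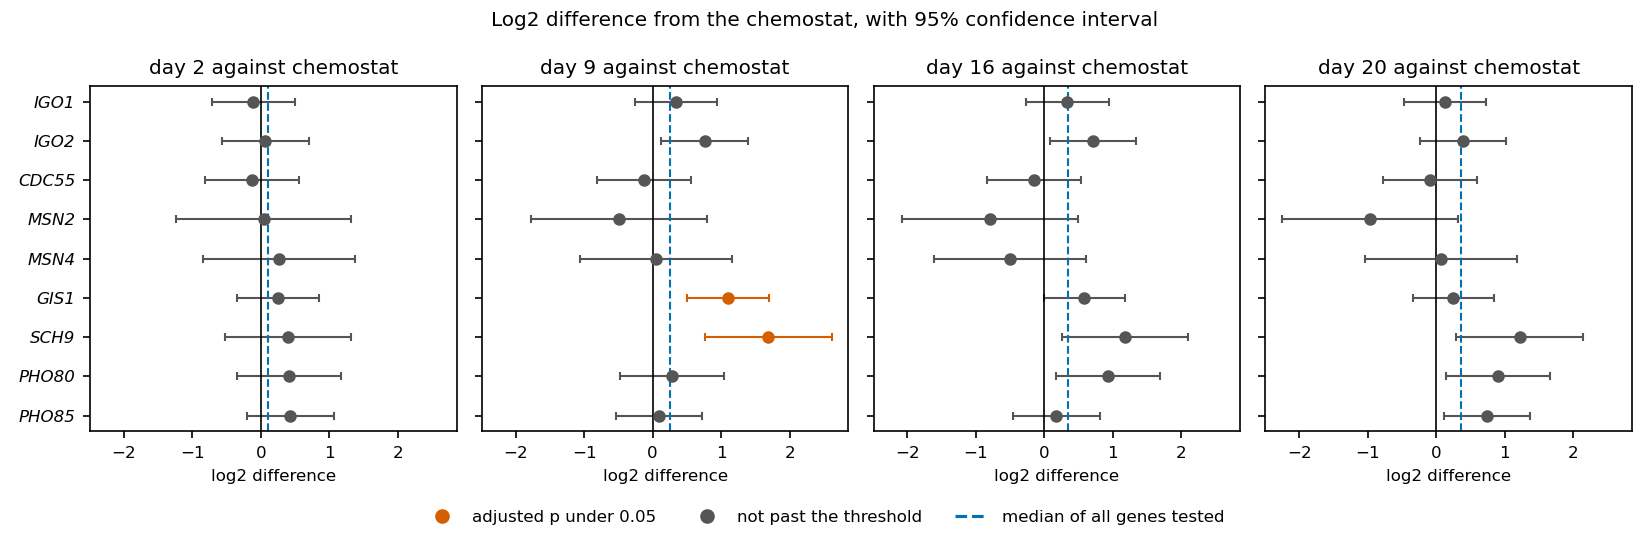
Log2 difference of each retentostat day from the chemostat (x axis) for the 9 genes above the floor, with 95% confidence intervals from limma, in orange where the adjusted p was under 0.05; the dashed line is the median of all genes tested. GIS1 and SCH9 on day 9 are the 2 coloured values, and the intervals of MSN2 and MSN4 are the widest.

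GIS1 (YDR096W) encodes a zinc-finger factor that binds post-diauxic-shift elements and turns on genes late in nutrient depletion. Its signals were 38.1, 45.8 and 48.2 in the chemostat and 40.0 and 67.9 on day 2. They were 104 and 84.8 on day 9, 67.0 and 64.3 on day 16, and 53.9 and 50.4 on day 20. The median signal of the arrays ran from 85.3 to 122. All 6 arrays of days 9, 16 and 20 lay above the chemostat range, as was the case for 24.5% of all genes. The day 9 arrays lay above all others, and those of day 2 spanned the values of day 20. On day 9 GIS1 averaged 94.3 ± 13.4 (SD, n = 2) against 44.0 ± 5.28 in the chemostat (SD, n = 3). The difference of the mean log2 signals was 1.10 ± 0.27, or 2.14-fold (SE; limma, adjusted p = 0.0240). On days 16 and 20 it was 0.58 and 0.25 ± 0.27 (adjusted p = 0.140 and 0.541), and the day 20 value turned to -0.22 under quantile and -0.18 under median scaling. The day 9 call was close to the threshold. It ended without chemostat array 1, 2 or 3 (adjusted p = 0.0865, 0.0601 and 0.0644) and when culture 1 or culture 2 was left out of day 9 (adjusted p = 0.0860 and 0.0524). It ended too when the 3 high-ratio arrays were dropped (1.24, adjusted p = 0.0749), and under quantile and median scaling (0.87 and 0.81, adjusted p = 0.0627 and 0.0866).

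MSN2 (YMR037C) and MSN4 (YKL062W) encode paralogous zinc-finger factors that bind stress response elements. MSN2 gave 217, 280.3 and 251 in the chemostat, 338 and 192.5 on day 2, 247 and 126.5 on day 9, 292 and 69.9 on day 16, and 169.8 and 94.9 on day 20. Culture 2 was the lower culture on every day, and its 4 arrays all lay under the chemostat range. The ACT1 ratio of culture 2 was 1.94 on day 2, and the part of the ratio in the order of the cultures was not tested. The mean on day 20 was 132 ± 53.0 (SD, n = 2) against 249 ± 31.8 in the chemostat (SD, n = 3), and both day 20 arrays lay under the chemostat range. The log2 difference was -0.97 ± 0.57 (95% interval -2.25 to 0.32, limma adjusted p = 0.271), so the lower MSN2 signal on day 20 did not pass the test.

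MSN4 gave 246, 243 and 173 in the chemostat, 255 and 271 on day 2, 174 and 292 on day 9, 304 and 77.8 on day 16, and 246 and 214 on day 20. A single array stood apart, that of culture 2 on day 16, and all others lay between 173 and 304. The log2 difference from the chemostat lay between -0.50 and 0.27 on the 4 days, with a standard error of 0.50 (limma adjusted p from 0.495 to 0.970). On day 16 without the culture 1 array, MSN4 and MSN2 were lower past the threshold, by -1.49 and -1.83 (adjusted p = 0.0186 and 0.0282), and MSN4 was also lower than on day 2, by -1.76 (adjusted p = 0.0316). These 3 values rest on the array with an ACT1 ratio of 217. MSN2 and MSN4 correlated with r = 0.56 over 11 arrays and 0.03 over the 8 arrays of low ratio, again as a description of arrays from shared cultures.

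Where the cultures parted, the branch genes parted in different directions. On day 16 the culture 2 signal relative to culture 1 was -2.06 for MSN2, -1.97 for MSN4 and -1.35 for SCH9 on the log2 scale. PHO80 differed by 1.04, IGO2 by 0.69 and IGO1 by 0.65. The median over 5419 protein-coding genes was 0.20, with the middle 50% between -0.40 and 0.71. MSN2 had a lower value than all but 3.62% of genes and MSN4 than all but 3.98%, whereas GIS1, at -0.06, was nearly equal in both cultures. Across 4 classes of coding length, the day 16 medians lay between 0.11 and 0.27. On day 20, with an ACT1 ratio of 31.8 in culture 2, MSN2 differed by -0.84, SCH9 by -0.41, IGO2 by 0.58 and PHO80 by 0.43. The part of the ACT1 ratio in these differences was not tested, since on days 9, 16 and 20 it cannot be told apart from culture.

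**Figure D3:**
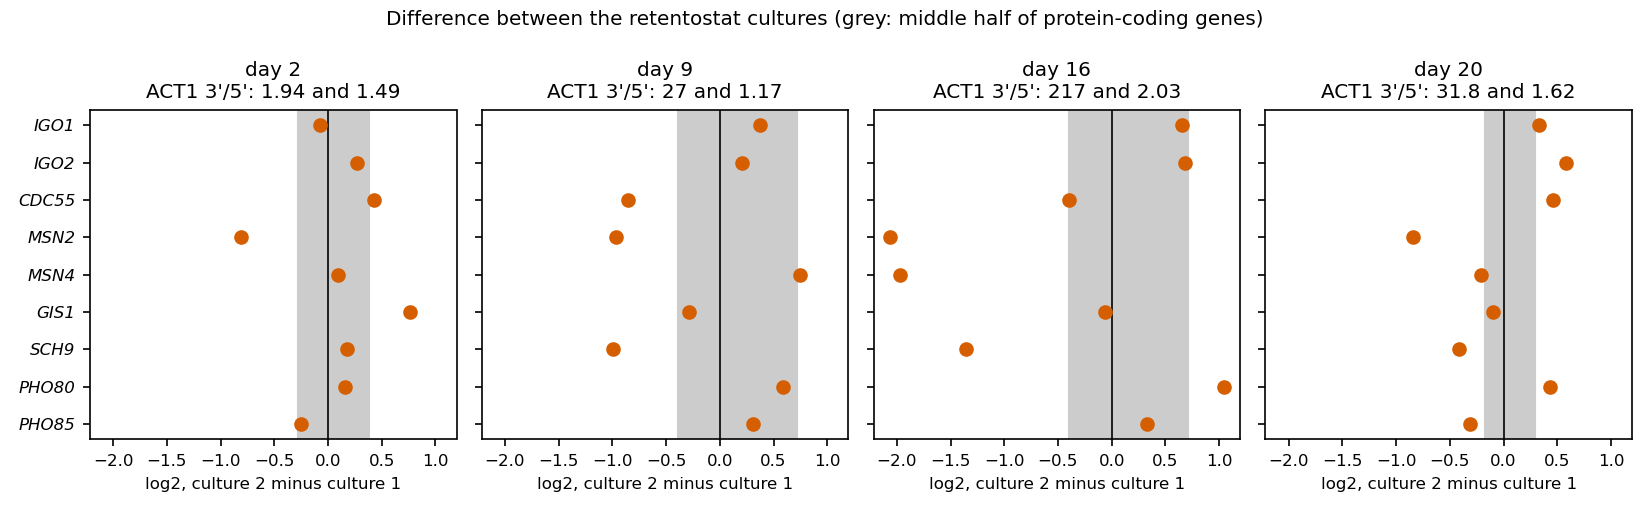
Log2 signal of culture 2 minus culture 1 (x axis) for the 9 genes above the floor on each retentostat day, with the ACT1 3'/5' ratios of culture 2 and culture 1 above each panel; the grey band is the middle 50% of 5419 protein-coding genes. MSN2 lies left of the band on all 4 days, and MSN2 and MSN4 lie near -2 on day 16.

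Within the retentostat no gene of the branch differed from day 2 past the threshold. On days 9, 16 and 20 against day 2, 0 of 10 passed (limma), beside 0.161%, 1.38% and 0.592% of all genes. At an unadjusted p under 0.05 the counts were 3, 0 and 0 of 10, beside 14.6%, 20.9% and 13.6% of all genes. The 3 were SCH9, GIS1 and IGO2 on day 9, with log2 differences from day 2 of 1.29 ± 0.45, 0.85 ± 0.29 and 0.69 ± 0.31 (adjusted p = 0.240, 0.233 and 0.342). GIS1 on day 20 was level with day 2 (0.00 ± 0.29), while SCH9 was at 0.82 ± 0.45 (adjusted p = 0.473). These comparisons and those with the chemostat share arrays, so their values are not independent. Ranked by group mean, SCH9 ran from day 9 through days 16, 20 and 2 to the chemostat, and the first 3 of these overlapped in their arrays. The day 20, day 2 and chemostat arrays did not overlap. For GIS1 the day 9 arrays stood above day 16, the ranges of days 16, 2 and 20 overlapped from neighbour to neighbour, and day 20 did not overlap the chemostat.

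The genes whose log2 signals followed SCH9 most closely over the 11 arrays, among 5169 genes above the floor throughout, were COA1 (YIL157C, an assembly factor of cytochrome c oxidase), RSM28 (YDR494W, a mitochondrial ribosomal protein) and RPN10 (YHR200W, a ubiquitin receptor of the proteasome). Their Pearson r was 0.96, 0.95 and 0.95, and 0.99, 0.98 and 0.95 over the 8 arrays of low ACT1 ratio. Among the 5169 genes they ranked 3, 6 and 151 over those 8 arrays. For GIS1 they were YGR035C, CBP2 (YHL038C, a splicing factor for a mitochondrial intron) and PRP11 (YDL043C, a spliceosome protein), with r of 0.92, 0.90 and 0.90 over 11 arrays. Over the 8 arrays of low ratio their r was 0.93, 0.91 and 0.91, and they ranked 18, 39 and 40. All 3 had signals between 16.0 and 54.4, close to the floor. These are the highest values among many genes over arrays that share cultures, and they describe these arrays.

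Around the branch, 9 lists with 73 genes were examined, of which 70 had a probe set of their own above the floor. On days 9, 16 and 20, 13, 12 and 7 of the 70 rose relative to the chemostat and 2, 1 and 0 fell, that is 21.4%, 18.6% and 10% called, beside 15.1%, 20.9% and 13.5% of all genes. On day 2, 0 of 70 passed (limma), and 12 of 70 had an unadjusted p under 0.05, beside 0.0179% and 8.57% of all genes. Under quantile scaling 5, 3 and 2 were higher and 2, 2 and 1 lower on days 9, 16 and 20, beside 10.3%, 12.5% and 7.57% of all genes called. Under median scaling 4, 3 and 2 were higher and 3, 3 and 2 lower, beside 11.2%, 13.4% and 9.45% of all genes. Without the 3 arrays of high ACT1 ratio each of these days keeps 1 array, and counts for the lists from that fit are not given. Of the 35 calls with all arrays, 30 ended when some 1 array was left out. The 4 that held under every alternative that could be run were PCL1, HSP26 and SPI1 on day 9 and ALD3 on day 16.

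Upstream of Sch9, 1 of 7 genes of TORC1 and its Tap42-Sit4 arm rose on days 9 and 16, near the 15.1% and 20.9% of all genes called. KOG1 (YHR186C), a TORC1 subunit, averaged 638 and 526 on days 9 and 16 against 307 in the chemostat, with log2 differences of 1.07 and 0.80 ± 0.23 (limma adjusted p = 0.0151 and 0.0373). Neither call held once the 3 high-ratio arrays were dropped. None of PKH1, PKH2, SNF1 and YAK1, kinases that act on or beside Sch9 and the stress factors, passed on any day. In the Ras and protein kinase A list 1 of 6 genes fell, beside 3.68% of all genes called lower on day 9: RAS1 (YOR101W), a GTPase that activates adenylate cyclase, averaged 92.1 on day 9 against 214 in the chemostat (log2 difference -1.29 ± 0.29, adjusted p = 0.0193). RAS1 stood between 62.6 and 141 on all 8 retentostat arrays, against 207 to 221 in the chemostat. All 8 lay under the chemostat arrays for 4.45% of all genes. The day 9 call of RAS1 ended without any 1 of the chemostat arrays or the culture 1 array of day 9. It also ended with only the arrays of the compared groups in the fit.

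Of 11 genes of the Pho85 module, 1 rose and 1 fell on days 9 and 16, and 1 rose on day 20, which is near the 15.1%, 20.9% and 13.5% of all genes called. Without the 3 high-ratio arrays each of these days keeps 1 array, and counts of passing genes from that fit are not given for this list. PCL10 (YGL134W), a cyclin that directs Pho85 to glycogen synthase, gave 83.9 to 163 on the arrays of days 9 and 16 and 76.7 and 125 on day 20, against 36.8 to 44.3 in the chemostat. Its log2 differences were 1.42, 1.58 and 1.32 ± 0.33 on days 9, 16 and 20 (limma adjusted p = 0.0206, 0.0114 and 0.0306). PCL1 (YNL289W), a G1 cyclin of Pho85, gave 116 and 95.4 on day 9, against 274, 307 and 295 in the chemostat. It differed by -1.47 ± 0.22 on day 9 (adjusted p = 0.00428) and by -0.72 ± 0.22 on day 16 (adjusted p = 0.0465). The day 20 arrays, at 205 and 241, still lay under the chemostat range (adjusted p = 0.254). The cyclins PCL10 and PCL1 thus moved in opposite directions while PHO85 itself did not pass. The PCL1 call of day 9 held under all 22 alternatives, and that of day 16 ended under 13 of them. The PCL10 calls of days 9, 16 and 20 ended under 4, 2 and 9 of 22.

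Around PP2A, PPH21 (YDL134C), a catalytic subunit, was higher by 0.92 and 1.02 ± 0.27 on days 9 and 16 (limma adjusted p = 0.0487 and 0.0282). ZDS2 (YML109W), a partner of Cdc55, was higher by 1.12 and 1.09 ± 0.25 on days 16 and 20 (adjusted p = 0.0159 and 0.0244), and no other of the 7 genes passed. That made 1, 2 and 1 of 7 on days 9, 16 and 20, beside 15.1%, 20.9% and 13.5% of all genes called. Culture 2 was the higher culture for ZDS2 on every retentostat day, and its calls ended without the 3 arrays of high ratio. MSN5 (YDR335W), an exportin that carries Msn2 and Rim15 out of the nucleus, was higher on day 16, at a mean of 1015 against 515 in the chemostat (adjusted p = 0.0493), while the 14-3-3 genes BMH1 and BMH2 did not pass. Of 4 genes for mRNA factors that work with Igo1 and Igo2, PBP4 (YDL053C), a protein bound by the Pab1-binding protein Pbp1, was higher on day 20 by 1.17 ± 0.26 (adjusted p = 0.0201). MSN5 was 1 of 3 genes of its list on day 16 and PBP4 1 of 4 on day 20, beside 20.9% and 13.5% of all genes called. The calls of PPH21, MSN5 and PBP4 each ended when some 1 array was left out.

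Below the transcription factors, 8, 4 and 3 of 20 stress and stationary-phase output genes rose on days 9, 16 and 20 and none fell past the threshold (limma), beside 15.1%, 20.9% and 13.5% of all genes called in either direction. Under quantile scaling 3, 2 and 1 rose, beside 10.3%, 12.5% and 7.57% of all genes called in either direction. Under median scaling 2, 2 and 2 rose, beside 11.2%, 13.4% and 9.45%. Their median log2 difference was 0.56, 0.59, 0.39 and 0.49 on days 2, 9, 16 and 20, against 0.11, 0.25, 0.35 and 0.36 for all genes. Under median scaling the list's median was 0.42, 0.30, 0.00 and 0.05 on these days, against -0.03, -0.04, -0.04 and -0.07 for all genes. Quantile scaling gave 0.49, 0.61, 0.35 and 0.44 for the list, against -0.003, 0.03, 0.05 and 0.03 for all genes. SPI1 (YER150W), a cell-wall protein, gave 3372 and 2584 on day 9, 3009 and 1812 on day 16 and 1894 and 1962 on day 20, against 868, 906 and 696 in the chemostat. Its log2 differences were 1.85, 1.51 and 1.24 ± 0.30 (adjusted p = 0.00551, 0.00934 and 0.0278). HSP26 (YBR072W), a small heat-shock protein, gave 1205 and 969.5 on day 9 against 244.5, 331 and 205 in the chemostat, a log2 difference of 2.08 ± 0.40 (adjusted p = 0.0102). By day 20 HSP26 was at 594.5 and 325 (0.79 ± 0.40, adjusted p = 0.205). Of the 20 genes, 1, 1, 5 and 4 lay below 0 on days 2, 9, 16 and 20, none of them past the threshold. The lowest on day 20 was HSP12, with a log2 difference of -1.13. It gave 988 and 537 on that day against 1565, 1752 and 1468 in the chemostat.

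ALD3 (YMR169C), an aldehyde dehydrogenase, and GRE1 (YPL223C), a hydrophilic stress protein, rose from the floor region. ALD3 gave 38.6 and 82.5 on day 16 against 7.7, 15.2 and 5.9 in the chemostat, where 2 of 3 arrays lay under the floor of 12, so its log2 difference of 2.12 ± 0.35 (limma adjusted p = 0.00461) depends on the floor. It ran from 1.17 to 2.67 over the alternatives. GRE1 gave 35.8 and 33.7 on day 20 against 13.7, 13.8 and 12.4 in the chemostat (1.39 ± 0.30, adjusted p = 0.0182).

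Among 8 growth regulators controlled by Sch9 or TORC1, 2, 3 and 1 rose on days 9, 16 and 20, beside 15.1%, 20.9% and 13.5% of all genes called in either direction. They were repressors of growth genes. DOT6 (YER088C), which represses ribosome biogenesis genes, gave 715 and 358 on day 9, 739.9 and 463 on day 16 and 622 and 781 on day 20, against 234, 174 and 225 in the chemostat. Its log2 differences were 1.28, 1.49 and 1.74 ± 0.35 (limma adjusted p = 0.0394, 0.0187 and 0.0151). TOD6 (YBL054W), its paralogue, was higher by 1.95 ± 0.52 on day 16 (adjusted p = 0.0282), MAF1 (YDR005C), a repressor of RNA polymerase III, by 1.26 ± 0.35 on day 16 (adjusted p = 0.0346) and STB3 (YDR169C), a repressor of ribosome biogenesis, by 1.17 ± 0.26 on day 9 (adjusted p = 0.0175). Sch9 restrains several of these proteins by phosphorylation. The calls on the 4 repressors all ended under quantile and under median scaling, except DOT6 on day 20, which ended under median scaling and held under quantile scaling.

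**Figure D4:**
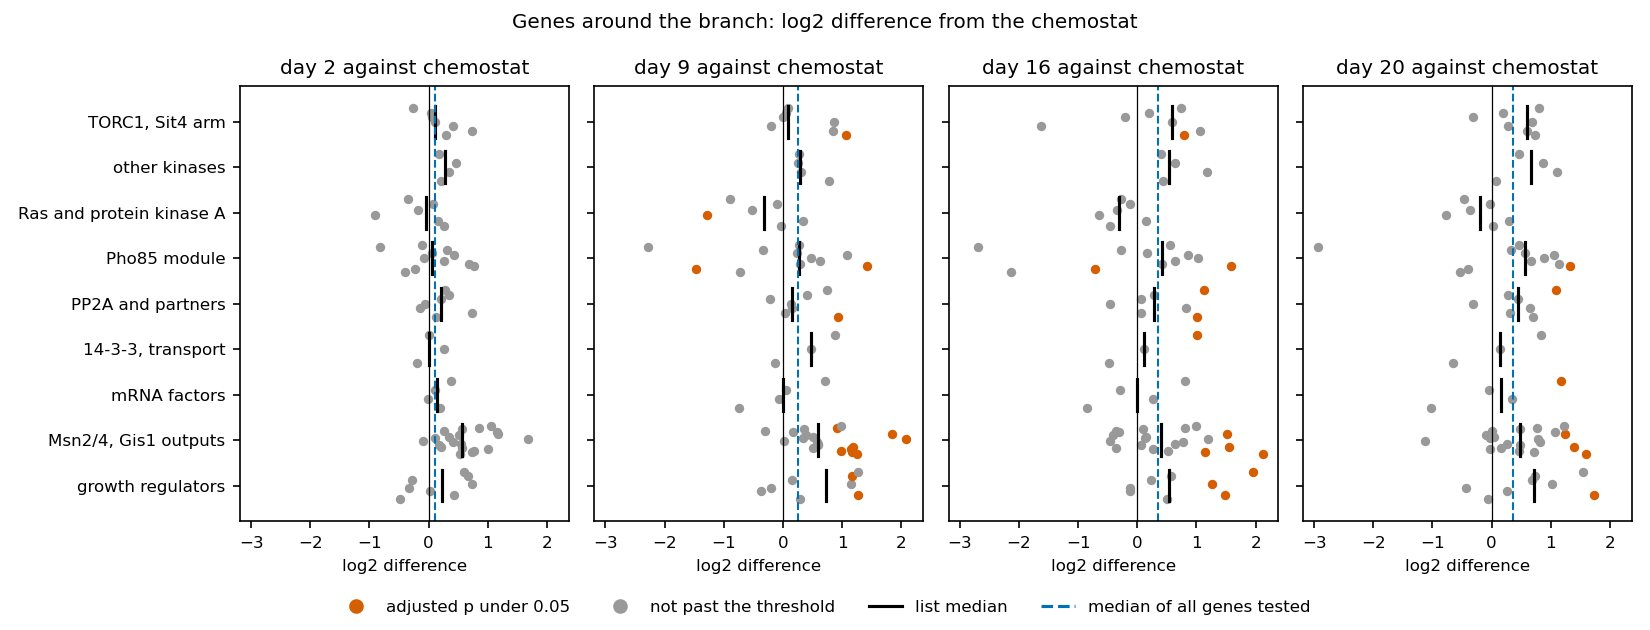
Log2 difference from the chemostat (x axis) of each of 70 genes in 9 lists around the Rim15 branch, by retentostat day; orange points passed limma with an adjusted p under 0.05, short bars are list medians and the dashed line is the median of all genes tested. Most calls lie in the rows of Msn2, Msn4 and Gis1 output genes and growth regulators, which hold 20 and 8 of the 70 genes. No call appears on day 2.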

How the data were processed

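Transcripts of a rim15 deletion strain were measured on 11 one-colour Affymetrix yeast arrays. Intensity values were deposited on a linear scale, 1 per probe set, and the authors made them with GCOS 1.2, per the submitters' processing notes. The sources used here give neither the scaling settings nor the genome build, and no coordinates are printed. The array has 9335 probe sets, of which 6504 name 1 gene, 328 several genes and 2443 none, and 60 are controls. The brightest probe set stood for each of 5656 genes. Signals under 12 were set to 12 and taken to log2, and 5577 genes were tested after dropping 79 that never exceeded that floor.

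Each retentostat day was compared with the chemostat and days 9, 16 and 20 with day 2 (limma 3.58.1, R 4.3.3, 1 linear model with a mean for each group fitted to the 11 arrays, empirical Bayes moderation, Benjamini-Hochberg adjustment, threshold 0.05, two-sided, 6 residual and 3.52 prior degrees of freedom). All adjusted p-values of single genes come from limma, and their standard errors are moderated. Retentostat arrays of a number carry 1 culture code in the labels, which pairs them. Their deviations from the day means correlated between days at 0.227 to 0.690, while the chemostat codes all differ. The alternatives were quantile and median scaling, floors of 6 and 25, a minimum mean signal of 50, the mean of all probe sets of a gene, leaving out each array or the 3 arrays of high ACT1 ratio, replicate blocks, and fits of the compared groups alone.

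The named genes were the 10 genes of the branch, each gene of the lists past the threshold on some day (of the output list, the 4 with the largest day 20 difference), and for GIS1 and SCH9 the 3 genes of highest correlation. HSP12 was named as well, as the output gene with the lowest day 20 difference. The genes and lists were chosen with earlier results of these data known.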

Additional observations from a re-analysis of the deposited data

How the results depend on the processing

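Of 1526 differences of single genes of the branch recomputed under the alternatives, 1388 kept their direction and their side of the threshold, 105 changed sign without passing in either fit, 15 lost and 18 gained the threshold, and 0 of those that passed turned round. Many of these differences could not move. Apart from RIM15, the genes had signals above 25 on all arrays and 1 probe set each. The floors, the minimum mean signal and the mean of all probe sets thus left their log2 differences unchanged. So did leaving out an array of a group not compared. RIM15 differences of 0 were counted as kept, so the share kept does not measure robustness. Of 175 counts of passing genes, 25 moved. On day 9 against the chemostat the count of 2 became 0 under quantile scaling, 0 under median scaling, 1 without the 3 arrays of high ACT1 ratio and 1 with median scaling as well. Leaving out each array in turn gave 0 to 2. On day 16 the count of 0 became 1 without the 3 arrays and 1 with median scaling as well, and leaving out each array gave 0 to 4. On day 20 it became 1 without the 3 arrays, 1 with median scaling as well and 2 with only the arrays compared, and leaving out each array gave 0 to 2. The F test gave 1 without the 3 arrays and 1 with median scaling as well, and 0 to 1 when each array was left out. On day 16 against day 2 leaving out each array gave 0 to 1. Where the array left out belonged to neither group compared, the log2 differences stayed the same. Only the shared spread and the adjustment over all genes changed there. The cause of the other moves was not tested. The highest day 16 count came without the culture 1 array of that day, where day 16 rests on the array with an ACT1 ratio of 217. Among the fits leaving out 1 array, the day 16 count over all genes was also highest there. That branch count is therefore not a result about the branch as a group.

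With culture as a random block (estimated correlation 0.247) or the replicate number as a fixed block, 2 genes of the branch passed on day 9 against the chemostat and 0 in each other comparison, so the block changed no call of the 10 genes. Over all genes the random block raised the counts against day 2 to 65, 451 and 149 on days 9, 16 and 20, beside 9, 77 and 33 without it, and the fixed block lowered the F test count to 399, beside 636. Counts over all genes on days 9, 16 and 20 against the chemostat were 842, 1167 and 753. They ran from 327 to 1089, from 406 to 1757 and from 50 to 1069 when each array was left out. Quantile scaling gave 575, 696 and 422. Without the 3 arrays the count rose on day 9 and fell on days 16 and 20. With only the arrays compared, 618 passed on day 9, 758 on day 16 and 1942 on day 20. Where a day keeps 1 array, that array is assumed to vary like the other groups. GIS1 signals ran from 38.1 to 104, beside array medians of 85.3 to 122, and 2 or 3 arrays per group limit every comparison.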
